A study of Drosophila melanogaster with 6 samples.

Results

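Catecholamine and cuticle tanning enzymes are the proteins that turn the amino acid tyrosine into dopamine and dopamine into the acylated catecholamines that harden and colour insect cuticle. The 9 genes described here were Hn, Pu, ple, Ddc, amd, b, e, t and Dat, found by their symbols among the 16662 rows of a gene expression table of Drosophila melanogaster larvae of instar 3. The group of genes was chosen from earlier results on these same libraries, with differences between the genotypes already in view. Their differences between genotypes are therefore given as a description. Where counts of these genes past a threshold are printed, nothing is read from them. Lists of other pathway genes and of markers were drawn up with earlier results of these data known too, so their p-values are not independent tests either.

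The table held 6 RNA-seq libraries of total RNA from larvae of 3 genotypes, with 2 libraries each. The control was the yw strain, which carries mutations in yellow and white. HP1b16 and HP1b86 larvae came from stocks homozygous for deletions in HP1b, the X-linked gene of a Heterochromatin Protein 1 paralogue. The deletions were made in a y- background by imprecise excision of 1 P element, HP1b86 being the longer deletion. Each allele is 1 excision line, and both were then crossed back to the yw strain over 6 generations, so that the mutations in yellow and white belong to all 3 genotypes. The sources used here do not give the sex of the larvae, their age within the instar or how many went into a library, and no source states that 2 libraries of a genotype were separate collections, so that p-values measure the spread between these libraries. Both mutants were compared with the same pair of yw libraries.

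HP1b itself had 22.8 and 24.2 FPKM (fragments mapped per kilobase of transcript, scaled to library size) in yw, 2.55 and 3.13 in HP1b16 and 0.121 and 0.0403 in HP1b86. The mean of both mutants differed from yw by -3.59 ± 0.13 (SE) in log2(FPKM + 1), with an adjusted p of 0.0268 in limma, a linear model fitted to the 10986 rows that averaged 1 FPKM or more. In that comparison 701 rows passed the adjusted threshold of 0.05. No limma call given here for that comparison held when any 1 of the yw or HP1b16 libraries was left out. Read totals were not in the table, but low FPKM values came in whole steps of 1 fragment (98.1% to 99.4% of them within 0.15 of a step, against 30% by chance), from which the deepest library, HP1b16 replicate 2, held 2.95 times as many fragments as the shallowest, HP1b86 replicate 1. The 2 HP1b86 libraries differed from each other more than those of the other genotypes did, with 23.6% of tested rows over 2-fold apart against 1.82% in yw and 1.85% in HP1b16. In the labels the HP1b86 libraries also carry names of another form than the other 4, and if this marks a separate run, run and genotype cannot be told apart.

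In insects, tyrosine hydroxylase makes DOPA from tyrosine with the help of tetrahydrobiopterin, and DOPA decarboxylase then makes dopamine. Neurons use dopamine as a transmitter. The epidermis secretes dopamine and its derivatives into the cuticle, where laccase oxidises them to quinones that cross-link cuticle proteins at each moult and at formation of the puparium. Dopamine joined to beta-alanine gives N-beta-alanyldopamine (NBAD), a precursor of tan and colourless cuticle, and dopamine left free gives black melanin.

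Upstream of dopamine, Hn encodes phenylalanine hydroxylase, which supplies tyrosine. Its level was 95.8 and 101 FPKM in yw (replicates 1 and 2 here and below), 91.5 and 88.0 in HP1b16, and 131 and 91.8 in HP1b86. Hn thus stayed within a narrow band: HP1b16 lay just below yw, and HP1b86 lay on both sides of it. The differences from yw were -0.13 ± 0.20 for HP1b16 and 0.15 ± 0.20 for HP1b86 (log2 scale, SE), and the second became -0.44 when each library was rescaled to the same total (TPM scaling). Here and below the SE comes from a spread pooled over all genotypes, so both mutants carry the same SE for a gene. It is not the spread of either mutant alone. Replicate 1 minus replicate 2 of Hn was -0.07 in yw, 0.06 in HP1b16 and 0.51 in HP1b86 on the log2 scale.

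Pu encodes GTP cyclohydrolase, the entry enzyme of tetrahydrobiopterin and of the pterin eye pigments. It had the highest mean of the 9 genes in all 3 genotypes. Pu was at 393 and 223 FPKM in yw, 105 and 76.7 in HP1b16, and 127 and 252 in HP1b86. Both HP1b16 libraries were below yw, whereas HP1b86 replicate 2 lay between the yw libraries. The mean FPKM was 3.38-fold lower in HP1b16 than in yw (log2 difference -1.71 ± 0.46) and 1.62-fold lower in HP1b86 (-0.72 ± 0.46).

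The rate-limiting enzyme of dopamine synthesis, tyrosine hydroxylase, is the product of ple (pale). FPKM of ple was 207 and 19.5 in yw, 44.3 and 6.72 in HP1b16, and 3.78 and 2.41 in HP1b86. Replicate 1 of HP1b16 was above the lower yw library, so these groups overlapped, and only the HP1b86 libraries were both below yw. Mean FPKM was 4.44-fold lower in HP1b16 and 36.5-fold lower in HP1b86, with log2 differences of -1.80 ± 1.40 and -4.01 ± 1.40. These sizes rested on yw replicate 1: without it the differences were -0.13 for HP1b16 and -2.34 for HP1b86, and without yw replicate 2 they were -3.47 and -5.69.

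Ddc, DOPA decarboxylase, makes dopamine from DOPA and serotonin from 5-hydroxytryptophan. In yw it was at 162 and 95.8 FPKM, in HP1b16 at 40.0 and 16.8, and in HP1b86 at 8.15 and 19.2. All 4 mutant libraries were below both yw libraries, and HP1b86 replicate 2 fell between the HP1b16 libraries. Mean FPKM was 4.54-fold lower in HP1b16 (log2 difference -2.22 ± 0.61) and 9.42-fold lower in HP1b86 (-3.21 ± 0.61).

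The neighbouring paralogue amd (alpha methyl dopa-resistant), which is needed for a normal cuticle, was by far less abundant. Its level was 0.571 and 0.748 FPKM in yw, 1.27 and 1.47 in HP1b16, and 1.53 and 0.945 in HP1b86. All 4 mutant libraries were above yw, opposite to Ddc, at 2.08-fold and 1.88-fold the yw mean (0.52 ± 0.22 and 0.42 ± 0.22 on the log2 scale). An estimated 51 to 181 fragments per library lay behind these values, and fewer than for Ddc in every library.

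**Figure D1:**
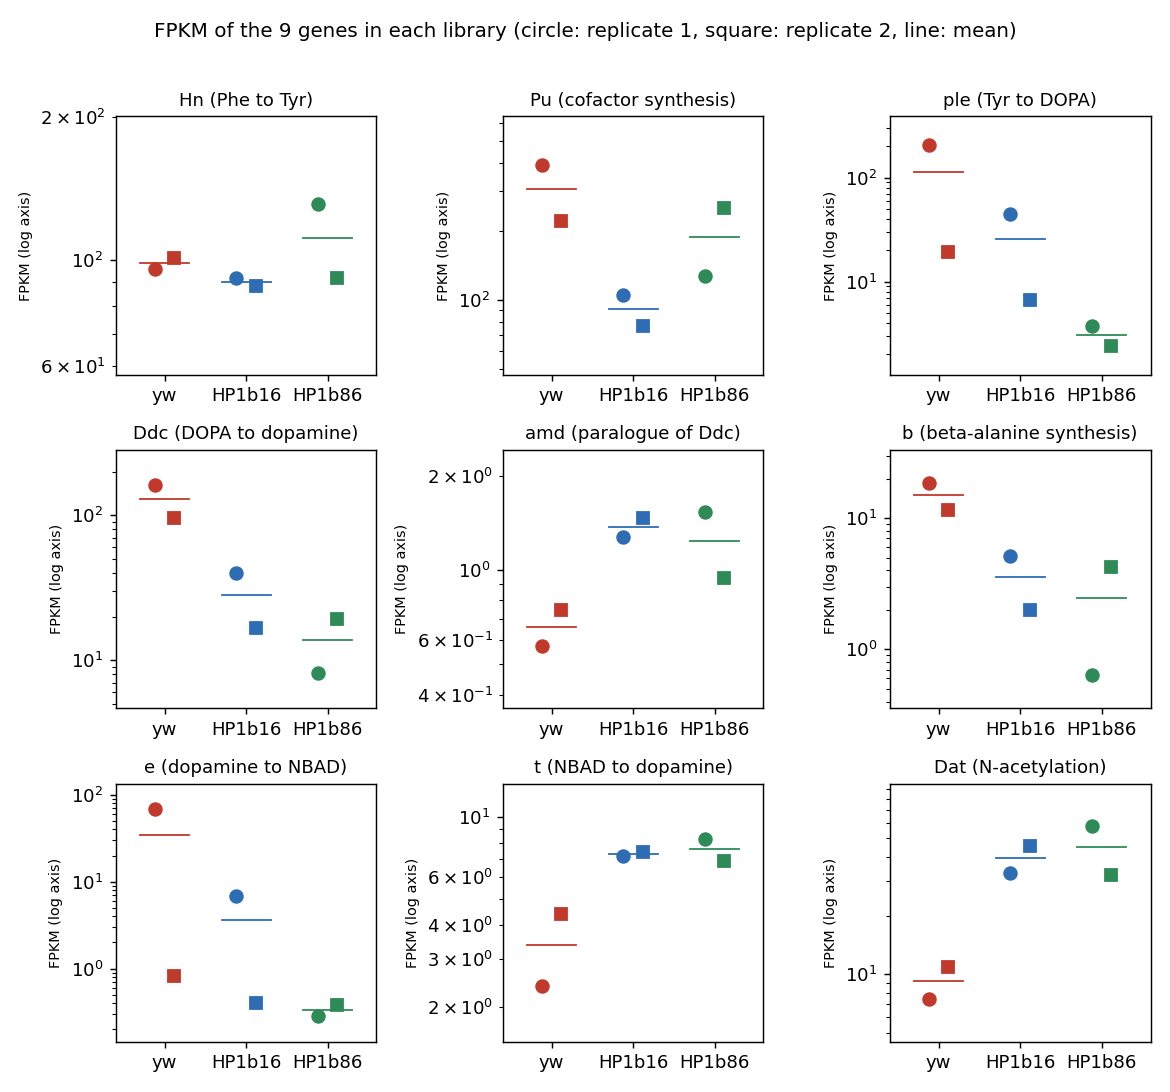
FPKM of the 9 enzymes in each library, on a log axis, with 1 panel per gene, circles for replicate 1, squares for replicate 2 and a line at each genotype mean. Ddc and b were below both yw libraries in all 4 mutant libraries and amd, t and Dat above them, while ple and e spread widely between the 2 yw libraries (207 and 19.5 FPKM for ple, 68.2 and 0.825 for e).

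Downstream of dopamine, b (black) encodes an aspartate decarboxylase that makes the beta-alanine of NBAD. FPKM of b was 18.6 and 11.5 in yw, 5.16 and 1.99 in HP1b16, and 0.634 and 4.27 in HP1b86. Again all 4 mutant libraries were below yw, and b put the 6 libraries in exactly the order that Ddc did. The mean was 4.21-fold lower in HP1b16 and 6.14-fold lower in HP1b86 (log2 differences -1.87 ± 0.70 and -2.42 ± 0.70). The ratio of b to Ddc ran from 0.115 to 0.129 in the yw and HP1b16 libraries, against 0.0778 and 0.222 in HP1b86, where 29 to 31 fragments of b were estimated in replicate 1.

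NBAD synthase, which joins beta-alanine to dopamine, is encoded by e (ebony). This gene spread the most, from 68.2 FPKM in yw replicate 1 to 0.825 in yw replicate 2, 6.87 and 0.3995 in HP1b16 and 0.284 and 0.377 in HP1b86. HP1b16 lay on both sides of yw replicate 2, and both HP1b86 libraries were below it. The differences from yw were -1.76 ± 1.92 for HP1b16 and -3.08 ± 1.92 for HP1b86. Without yw replicate 1 the mean of both mutants turned from -2.42 ± 1.66 to 0.20, with 0.86 for HP1b16 and -0.46 for HP1b86, so the direction for e rested on that library. Estimated fragments of e were 11377 in yw replicate 1 but 110 in replicate 2 and 21 and 42 in the HP1b86 libraries.

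The reverse step, release of dopamine from NBAD, is carried out by the hydrolase t (tan), which also recycles histamine in the eye. Its FPKM was 2.38 and 4.38 in yw, 7.14 and 7.43 in HP1b16, and 8.29 and 6.90 in HP1b86. All mutant libraries were above yw and close to each other. The mutant means were 2.15-fold and 2.25-fold the yw mean (0.96 ± 0.26 and 1.01 ± 0.26 on the log2 scale).

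Dat, listed as speck in the current annotation and not to be confused with DAT, the dopamine transporter, encodes an arylalkylamine N-acetyltransferase that acetylates dopamine and serotonin. It was at 7.45 and 10.9 FPKM in yw, 33.3 and 45.5 in HP1b16, and 57.6 and 32.3 in HP1b86. The lowest mutant library was thus well above the highest yw library. Mean FPKM was 4.28-fold the yw level in HP1b16 and 4.89-fold in HP1b86, with log2 differences of 1.99 ± 0.36 and 2.14 ± 0.36.

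**Figure D2:**
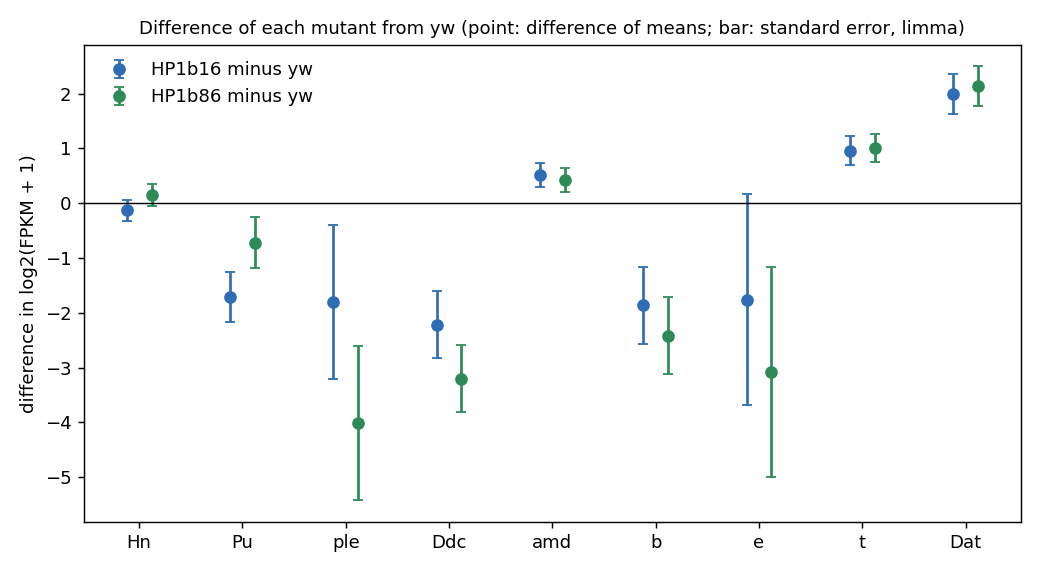
Difference of HP1b16 and of HP1b86 from yw in log2(FPKM + 1) for the 9 enzymes, with bars for the standard error in limma. The bars come from a spread pooled over all genotypes, so they are the same for both mutants of a gene. The values ran from -4.01 (ple in HP1b86) to 2.14 (Dat in HP1b86), with the widest bars for e (SE 1.92) and ple (SE 1.40).

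Across the 9 genes, all 4 mutant libraries were below both yw libraries for 2 (Ddc and b), where 19.8% of all tested rows did the same, and above them for 3 (amd, t and Dat), against 24.4%. HP1b16 alone was below yw for 4 genes and above it for 3, against 46% and 30.1% of rows, and HP1b86 alone was below for 4 and above for 3, against 26.1% and 31.7%. Of the 9, 1 gene (Dat, higher) passed the threshold for the mean of both mutants, against 4.68% of rows higher and 1.7% lower. None did for HP1b16 (0.0182% of rows, with 2605 rows at an unadjusted p under 0.05), for HP1b86 (2.98% higher and 1.06% lower, 3300 unadjusted) or between the mutants (0.0091%, 868 unadjusted). In the fits without an HP1b86 library listed next, the counts of all rows and of the 9 genes rose together. In other such fits the count of all rows rose while none of the 9 passed. For the mean of both mutants, b, amd, Ddc, Pu, Dat and t passed without HP1b86 replicate 2, as did 5009 of 10866 rows, and Ddc and Dat without HP1b86 replicate 1, as did 1764 of 11011. For HP1b16, b, Ddc, Pu and Dat passed without HP1b86 replicate 1 (2366 rows), without its replicate 2 (2344 rows) and with yw alone (2351 rows). For HP1b86, b, Ddc, Dat and t passed without its replicate 2 (4631 rows). Because these contrasts served to choose the genes, nothing is read from any of these counts. The median log2 difference of the 9 was -1.71 in HP1b16 and -0.72 in HP1b86, and that of all tested rows -0.10 and -0.0048. Without yw replicate 1, the median over the 9 was -0.13 for HP1b16 and -0.31 for HP1b86.

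The order of the levels per kilobase differed between genotypes. In yw the means ran Pu 307.8, Ddc 128.9, ple 113.1, Hn 98.4, e 34.5, b 15.1, Dat 9.19, t 3.38 and amd 0.659 FPKM. In the yw order, Ddc (SD 46.8, n = 2), ple (SD 132.5) and Hn (SD 3.64) did not differ beyond their spread, nor did ple and e (SD 47.7) or e and b (SD 5.06). By their means Pu, Hn and Dat held the first 3 places in both mutants, followed by Ddc, although in HP1b16 replicate 1 ple and Ddc were above Dat. The means of Pu and Hn were 91.0 ± 20.2 and 89.7 ± 2.52 FPKM in HP1b16 (SD, n = 2), closer than their spread. Dat at 39.4 ± 8.64, Ddc at 28.4 ± 16.4 and ple at 25.5 ± 26.6 did not differ beyond their spread in HP1b16. In HP1b86 Dat was at 44.9 ± 17.9 and Ddc at 13.7 ± 7.85. In HP1b86 e was last, at 0.330 ± 0.0658 FPKM.

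Ratios within a library do not depend on its scaling. The Ddc to Dat ratio was 21.7 and 8.77 in yw, 1.20 and 0.369 in HP1b16, and 0.142 and 0.595 in HP1b86. Ddc was thus the more abundant of the pair in yw and in HP1b16 replicate 1, and Dat was in the other 3 libraries. The e to t ratio was 28.7 in yw replicate 1 but 0.188 in yw replicate 2, 0.962 and 0.0537 in HP1b16, and 0.0343 and 0.0547 in HP1b86. For e and t the split therefore lay between yw replicate 1 and the other 5 libraries, not between genotypes.

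**Figure D3:**
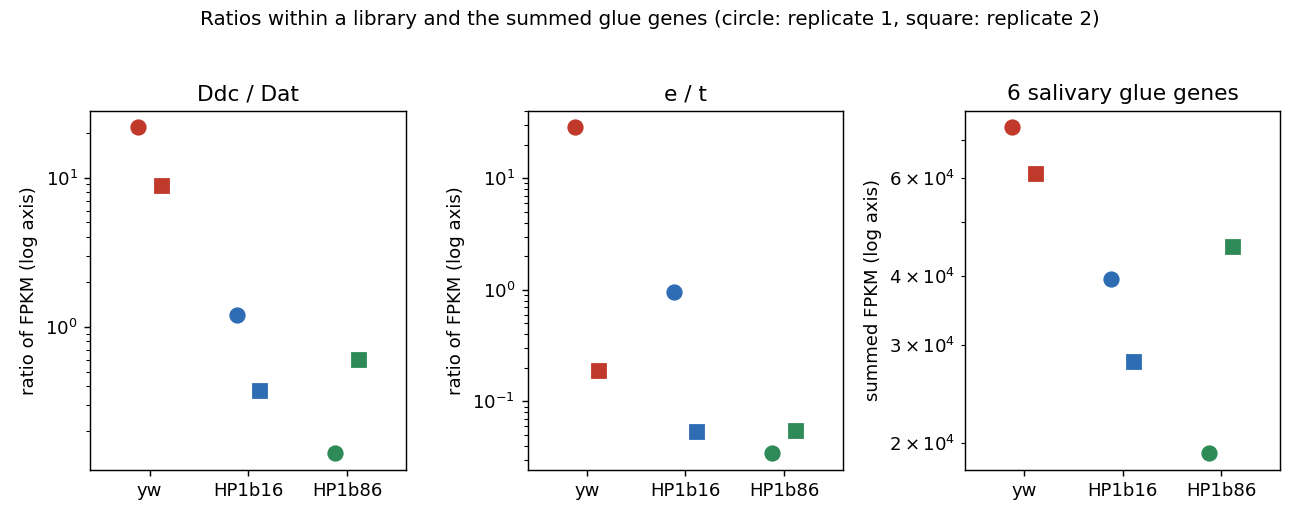
Ratio of Ddc to Dat, ratio of e to t and summed FPKM of 6 salivary glue genes in each library, on log axes, with circles for replicate 1 and squares for replicate 2. The Ddc to Dat ratio was 8.77 or more in yw and 1.20 or less in the mutants, whereas the e to t ratio was above 1 only in yw replicate 1 (28.7).

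The 2 libraries of a genotype also differed in these genes. Between the yw libraries ple was 10.6-fold and e 82.8-fold higher in replicate 1, distances larger than those of 99.8% and 99.9% of tested rows. In HP1b16, replicate 1 was again higher, 6.60-fold for ple and 17.2-fold for e, larger than 99.8% of rows for both. In HP1b86 neither stood apart, with ple more distant than 59.4% of rows and e than 17.9%. Ddc and b had the same direction as ple in yw and HP1b16, and HP1b86 reversed them, with replicate 1 the lower. The genes that were higher in the mutants mirrored this: amd, t and Dat put the 6 libraries in 1 shared order, from HP1b86 replicate 1 (highest) through HP1b16 replicate 2, HP1b16 replicate 1, HP1b86 replicate 2 and yw replicate 2 to yw replicate 1. In each genotype the library with more Ddc had less Dat, t and amd. As order within 6 libraries of 3 genotypes, this is a description.

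**Figure D4:**
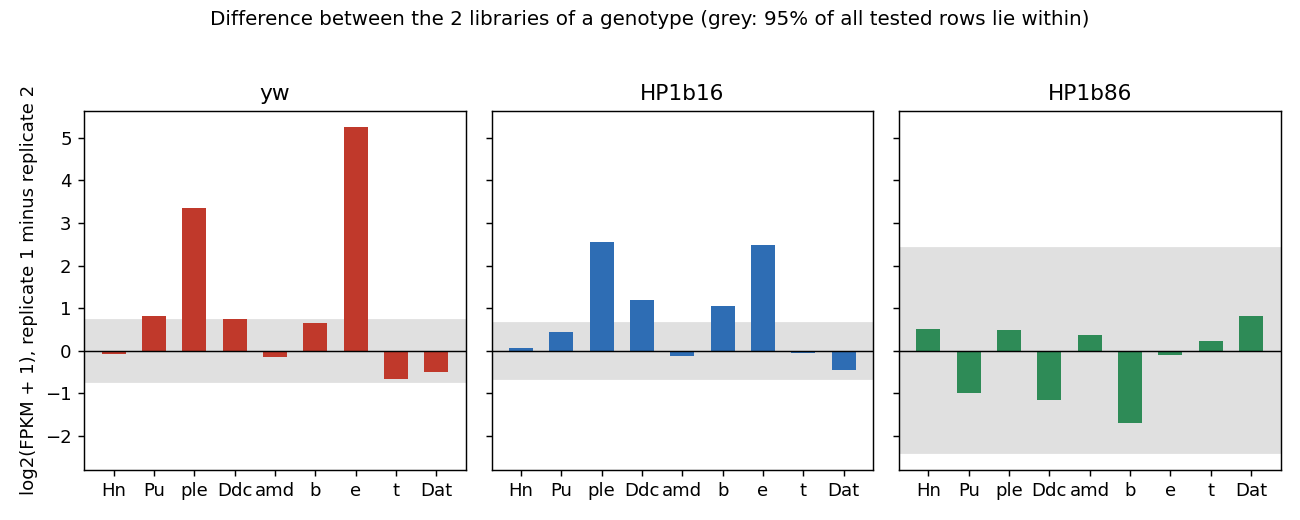
Replicate 1 minus replicate 2 in log2(FPKM + 1) for each enzyme and genotype, with the grey band holding 95% of all tested rows of that genotype. In yw and HP1b16, ple (3.34 and 2.55) and e (5.25 and 2.49) lay far outside the band, with Pu (0.81) and Ddc (0.75) just past it in yw and Ddc (1.20) and b (1.04) past it in HP1b16, and in HP1b86 all 9 enzymes lay inside a wider band of 2.41 either way.

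Several markers of the progress of the instar were also measured. Glue protein genes, which the salivary glands switch on late in the instar, summed to 73880 and 60800 FPKM in yw, 39490 and 27970 in HP1b16, and 19180 and 45050 in HP1b86 (6 genes, 0 past the threshold, none at 0 in any library). That sum put the libraries in the reverse of the order of Dat, t and amd. So did Sgs7, which made up 50182 of the 73880 FPKM in yw replicate 1, but none of the other 5 glue genes. Of these, Sgs1 was at 92.7 and 136 FPKM in yw and 85.0 to 171 in the mutants. The larval cuticle, muscle, midgut, neuron and testis sums given below, and br, had neither exactly that order nor its reverse. Larval cuticle and muscle came close to the order of Dat, t and amd. In the larval cuticle sum HP1b16 replicates 1 and 2 changed places, and in the muscle sum HP1b86 replicate 1 and HP1b16 replicate 2 did. The broad gene br, an ecdysone-induced transcription factor, was at 188 and 233 FPKM in yw and 41.6 to 102 in the mutants, and passed the test (log2 difference -1.63 ± 0.25, adjusted p = 0.0413, limma). Summed larval cuticle genes were at 12270 and 24160 FPKM in yw and 54800 to 69560 in the mutants. Of these genes 3 of 8 were past the threshold, all higher (4.68% of all tested rows were), and 1 was at 0 in a library. Summed pupal cuticle genes were at 461.1 and 428.3 FPKM in yw and 125.8 to 226.4 in the mutants (0 of 3 tested past the threshold, 2 of 4 at 0 in a library). Nearly all of that sum was Pcp. The other 2 tested, Edg78E and Acp65Aa, were higher in all 4 mutant libraries, as were 24.4% of all tested rows. Their log2 differences were 1.15 and 1.27, so that the list median was 1.15. Acp65Aa, an adult cuticle protein gene by name, was at 0.0378 and 0 FPKM in yw and only 0.0599 in HP1b86 replicate 2.

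Tissue markers differed too. For the mean of both mutants, 4.68% of all tested rows passed the threshold higher and 1.7% lower. The 6 muscle genes summed to 1277 and 2259 FPKM in yw and 5415 to 10730 in the mutants, with 4 past the threshold, all higher. Midgut genes summed to 3148 and 3540 in yw and 9422 to 21650 in the mutants, with 4 of 6 higher. Tracheal and epidermal genes summed to 197 and 234 in yw and 347 to 538 in the mutants, with 1 of 6 higher (serp). The sum came mostly from genes of chitin and cuticle, and the transcription factors trh and vvl of that list were at -0.61 and -0.51 on the log2 scale, neither past the threshold. Neuronal markers summed to 78.4 and 105 FPKM in yw and 67.4 to 88.6 in the mutants (0 of 7 tested past the threshold), hemocyte markers to 103 and 121 in yw and 93.7 to 148 in the mutants (0 of 5), and testis markers to 162 and 87.3 in yw and 42.2 to 248 in the mutants (0 of 5). Of the hemocyte genes, Hml was higher in every mutant library, eater and the row of srp were lower, and the others overlapped yw. Of the testis genes, bam was higher in every mutant library and the others overlapped yw. None of the genes in these 6 lists was at 0 in a library. Of the fat body genes 5 of 6 were, so that list gave no usable level. Its gene Lsp2, at 0 in both HP1b16 libraries and 7602 to 16386 FPKM in the others, nevertheless passed for the mean of both mutants. Lsp2 was also the 1 row past the threshold between the mutants, and 1 of the 2 for HP1b16, so those shares rest partly on zeros. The part of these markers in the differences of the enzymes was not tested. In whole larvae, fewer cells of a type and less RNA per cell cannot be told apart.

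For the rest of the pathway, lists of genes around the 9 enzymes were counted and tested with all rows, in the mean of both mutants against yw. Of all tested rows, 4.68% passed higher and 1.7% lower. These lists were drawn up with earlier results of these data known, so a pass describes these libraries and is not independent evidence. In tetrahydrobiopterin synthesis and recycling, none of 4 genes passed the threshold (median log2 difference -0.05, against -0.08 for all tested rows). Of its 2 most abundant genes, Dhpr, dihydropteridine reductase, which regenerates the cofactor, was at 288 and 292 FPKM in yw, 150 and 112 in HP1b16, and 70.1 and 179 in HP1b86. Although all 4 mutant libraries were lower, the difference of -1.26 ± 0.41 did not pass (adjusted p = 0.126, limma). Pcd, pterin-4a-carbinolamine dehydratase, was at 84.5 and 87.6 in yw and 74.5 to 86.3 in the mutants (-0.06 ± 0.10, adjusted p = 0.712).

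In beta-alanine supply and transport, 4 of 6 genes were abundant enough to test and 1 rose. This was su(r), dihydropyrimidine dehydrogenase, which starts the route from uracil to beta-alanine, separate from the aspartate route of b. It was at 1.76 and 1.29 FPKM in yw, 14.8 and 29.2 in HP1b16, and 23.0 and 13.7 in HP1b86, each mutant library far above yw (log2 difference 3.01 ± 0.36, adjusted p = 0.0350, limma). The list median was 0.42, between 2 genes above 0 and 2 below. Of those below, Csad shared its row with eRF1, and the table does not separate them.

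Tyrosine breakdown draws on the same amino acid as ple. None of its 6 genes passed the threshold. The median was 1.29, and all 4 mutant libraries were above yw for 5 of the 6, as they were for 24.4% of all tested rows. Tat, tyrosine aminotransferase, the first step, was at 3.78 and 9.11 FPKM in yw, 25.4 and 19.2 in HP1b16, and 11.9 and 11.1 in HP1b86 (1.29 ± 0.34, adjusted p = 0.0871, limma). GstZ2, a maleylacetoacetate isomerase and the most abundant of the list, was at 24.4 and 24.0 in yw and 15.3 to 24.8 in the mutants (-0.17 ± 0.19, adjusted p = 0.625).

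Among 8 genes of quinone and melanin formation, 6 were tested, and 1 rose and 1 fell. The gene that rose, laccase2 (stw), encodes the phenoloxidase that tans cuticle. It was at 3.70 and 5.60 FPKM in yw, 12.6 and 13.1 in HP1b16, and 9.74 and 9.04 in HP1b86 (1.10 ± 0.17, adjusted p = 0.0418, limma). The gene that fell, yellow-f, encodes a dopachrome-conversion enzyme of the melanin route and was at 92.8 and 73.1 in yw, 33.6 and 24.9 in HP1b16, and 20.1 and 31.4 in HP1b86 (-1.58 ± 0.25, adjusted p = 0.0433). Neither overlapped between yw and the mutants. Of all tested rows, 24.4% were higher than yw in all 4 mutant libraries and 19.8% lower. The list median was 1.06, with PPO3 read from a row shared with l(2)k09913.

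Genes that act on dopamine as a transmitter were scarce in whole larvae. Of 8 monoamine transporters and dopamine receptors, only Vmat and DopEcR reached a mean of 1 FPKM, and DAT was at 0.110 to 0.232 FPKM over the 6 libraries. DopEcR, a receptor of dopamine and ecdysteroids, rose, with 1.11 and 1.42 FPKM for yw, 2.78 and 3.15 for HP1b16, and 3.60 and 3.23 for HP1b86 (0.89 ± 0.14, adjusted p = 0.0440, limma). Vmat lay the other way without passing, at 3.68 and 3.74 FPKM in yw and 0.908 to 3.04 in the mutants (-0.76 ± 0.23, adjusted p = 0.111, limma). The median of these 2 genes was 0.06. Of 5 serotonin, tyramine and octopamine enzymes 2 were tested and 1 fell. AANATL2, a second N-acetyltransferase of arylalkylamines, was at 120 and 139 FPKM in yw, 62.4 and 66.1 in HP1b16, and 52.3 and 61.5 in HP1b86 (-1.08 ± 0.13, adjusted p = 0.0350), the opposite direction to Dat.

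Of 9 regulators linked to ple and Ddc, 8 were tested, and 1 rose and 1 fell. The gene that fell was br, above. The row that rose held usp, the partner of the ecdysone receptor, together with Actn, alpha-actinin, a muscle protein, and the table does not separate them (49.6 and 60.4 FPKM in yw, 84.7 to 145 in the mutants, 1.05 ± 0.17, adjusted p = 0.0448, limma). The list median was -0.20.

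**Figure D5:**
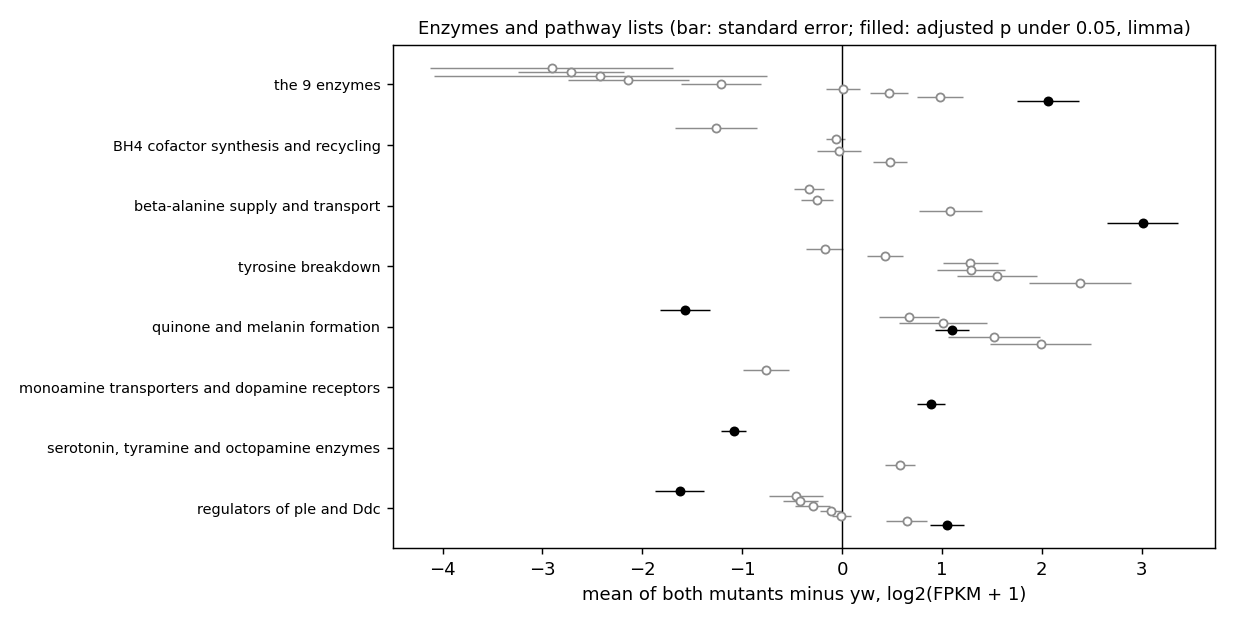
Mean of both mutants minus yw in log2(FPKM + 1) for the 9 enzymes and the tested genes of 7 pathway lists. Bars show the standard error, and filled points an adjusted p under 0.05 in limma. Since the enzymes were chosen on these differences, nothing is read from a filled point among them. The 9 enzymes ran from -2.91 (ple) to 2.06 (Dat), and in the lists su(r) at 3.01 was the highest and br at -1.63 the lowest.

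Ddc and amd lie next to each other on chromosome arm 2L, in a dense cluster with 1 annotated gene between them. Of the genes up to 5 places to either side, 10 were found in the table and 8 tested. None passed the threshold for the mean of both mutants in limma, and their median was 0.17. The 3 largest differences were 0.56 ± 0.17 for Phb1 (adjusted p = 0.110), -0.54 ± 0.79 for CG43731 (adjusted p = 0.703) and 0.36 ± 0.18 for AsnRS (adjusted p = 0.261). The other enzymes were spread over arms 2L (b), 2R (Pu and Dat), 3L (ple and Hn) and 3R (e) and the X (t).

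Finally, the rows most like ple were sought over all 6 libraries, by the root mean square difference in log2(FPKM + 1) after each was centred on yw. The nearest was CG34206 (0.407), at 78.9 and 5.52 FPKM in yw, 11.9 and 0.661 in HP1b16, and 0.116 and 0.0388 in HP1b86. CG13606 followed (0.633), at 108 and 20.2, 20.3 and 3.74, and 1.83 and 4.59, and then the noncoding RNA pncr015:3L (0.696), at 166 and 14.1, 28.3 and 3.39, and 0.615 and 0.210. Each was over 5-fold higher in replicate 1 than in replicate 2 of yw and of HP1b16. As the rows were chosen for likeness to ple over these same values, sharing this with ple follows from the choice.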

How the data were processed

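Total RNA of whole larvae was sequenced on the Illumina platform. Per the labels and the study's methods, the authors used bcl2fastq 2.18.0.12, Trim Galore 0.4.1, TopHat2 2.1.1 and Cufflinks 2.2.1 with genome build dm3, and deposited FPKM per gene in 1 table of 6 libraries. Cufflinks divides reads among overlapping genes by a model, strand use is not given in the sources used here, and 626 rows hold several genes. None of the 9 enzymes was at 0 in any library or shared a row.

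FPKM values were tested as log2(FPKM + 1) with limma 3.58.1 in R 4.3.3 (empirical Bayes with trend, all 6 libraries in 1 fit), over the 10986 rows averaging 1 FPKM or more, with Benjamini-Hochberg adjustment at 0.05. Log2 differences understate the change of low genes. The code was checked on simulated data. Fragment numbers were estimated from FPKM steps of genes with 1 transcript and annotated lengths, and cover counting only. Alternatives were another pseudocount, no filter, TPM, median-ratio and quantile scaling, a replicate block, no trend, each mutant alone with yw, and leaving out each library.

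The enzymes and lists were chosen with earlier results of these data known. Named were the 9 enzymes, HP1b, from each pathway list up to 4 genes past the threshold or otherwise its 2 most abundant, the 3 rows nearest to ple, and up to 3 neighbours of Ddc and amd. The lists were tetrahydrobiopterin, beta-alanine, tyrosine breakdown, quinones and melanin, monoamine transporters and receptors, other monoamine enzymes, regulators, and the markers printed. Of the genes listed, 1 (MCO1) was not found. No sequence is shown, since no table of the files' build was used here.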

Additional observations from a re-analysis of the deposited data

How the results depend on the processing

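For all rows, the counts past the threshold depended on the settings. HP1b16 against yw gave 2 rows, and 35 with a pseudocount of 0.1, 1 with no filter, 297 with TPM, 442 with quantile scaling, 2351 with that mutant and yw alone, and 0 to 2366 with 1 library left out. HP1b86 against yw gave 443 (327 higher, 116 lower), and 203 with no filter, 2049 with TPM (464 higher, 1585 lower), 1 with median-ratio scaling, 828 with quantile scaling (404 higher, 424 lower), 267 with no trend, 0 alone with yw (2556 unadjusted), and 0 to 4631 with 1 library left out. The mean of both mutants gave 701 (514 higher, 187 lower), and 461 with no filter, 1188 with TPM (557 higher, 631 lower), 1246 with quantile scaling (652 higher, 594 lower), and 0 to 5009 with 1 library left out. HP1b16 against HP1b86 gave 1, and 4 with a pseudocount of 0.1, 2 with median-ratio scaling, 3 with quantile scaling, and 0 to 2038 with 1 library left out. The cause was not tested.

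With a replicate block, 0 rows passed in any of the 4 comparisons (1839, 2382, 2508 and 467 at an unadjusted p under 0.05, limma). Libraries of the same number did not deviate together (correlations of 0.07, -0.40 and -0.12 between genotypes), and no source says that a number marks a shared batch.

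The median of the 9 enzymes ran from -2.11 to -0.13 in HP1b16, from -1.21 to -0.23 in HP1b86 and from -1.62 to -0.026 for the mean of both mutants as single libraries were left out, in each case but HP1b86 nearest to 0 without yw replicate 1. Without HP1b16 replicate 2 it was -0.51 in HP1b16. In HP1b86 fitted alone with yw, where amd was under the filter, it was -1.57. TPM scaling moved the median of all rows from -0.08 to -0.45 for the mean of both mutants. Among the 9 enzymes, Ddc then passed beside Dat (1188 of 11270 rows did), and with quantile scaling b, Ddc and Dat passed (1246 of 10986), while with no filter, with median-ratio scaling or with the block none of the 9 did. In HP1b86, Ddc and Dat passed with TPM or quantile scaling and Dat with a pseudocount of 0.1, and in HP1b16 Dat passed with quantile scaling. As the 9 were chosen on these differences, nothing is read from this. Fitting each mutant alone has no counterpart for the mean of both or for HP1b16 against HP1b86 and was not run for them. Depth limits e, b and amd, with as few as 21, 29 and 51 estimated fragments.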

Other observations

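Some scarce genes of the pathway lists, named here after their values were seen, were higher in every mutant library, as were 24.4% of all tested rows. Others went the other way: the receptor genes Dop1R2 and Dop2R, under the filter for testing, were lower in every mutant library. Hpd, 4-hydroxyphenylpyruvate dioxygenase of tyrosine breakdown, was at 0.138 and 0.135 FPKM in yw, 3.26 and 13.2 in HP1b16, and 3.69 and 3.40 in HP1b86 (log2 difference for the mean of both mutants 2.39 ± 0.51, adjusted p = 0.0627, limma). The next enzyme, hgo, homogentisate oxidase, had an estimated 3 and 2 fragments in the yw libraries, 134 and 265 in HP1b16 and 100 and 34 in HP1b86 (adjusted p = 0.0833). Faa, the last enzyme of the route, was at 0.971 and 0.998 FPKM in yw and 2.68 to 5.38 in the mutants (1.29 ± 0.27, adjusted p = 0.0624). None of these 3 passed the threshold.

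Members of the yellow family lay on both sides of yw. Beside the fall of yellow-f, its relative yellow-f2 was at 0.121 and 0.237 FPKM in yw and 2.06 to 6.18 in the mutants (1.99 ± 0.50, adjusted p = 0.0813, limma), and y itself, mutated in all 3 genotypes, had an estimated 4 and 2 fragments in yw, 23 and 38 in HP1b16, and 13 and 12 in HP1b86, under the filter for testing.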
